A study of Homo sapiens with 6 samples.

Results

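CpG-poor promoters were examined as regions of open chromatin that lay near the 5′ end of a protein-coding gene and held few CpG dinucleotides. Overlapping peaks of the 6 libraries were merged, and a region was kept if it was called in all 6 libraries, if its top summit lay within 2 kb of a GENCODE protein-coding 5′ end, and if the 250 bp on each side of the summit had an observed to expected CpG ratio under 0.6 or a GC content under 50%. These criteria selected 1698 of the 47847 regions called in all 6 libraries, and of 105441 regions called in any library. The members were thus chosen by measured values, namely the peak calls and the position of the summit, so their presence in every library is a description and not a result. The other shared regions comprised 8918 CpG-rich promoter regions and 37231 regions more than 2 kb from a gene's 5′ end, called other shared regions below. With the 5′ ends of all transcripts, CpG-poor promoter regions number 3258. Some of the 37231 thus lie near the 5′ end of an annotated transcript.

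The libraries came from RH30, a human rhabdomyosarcoma cell line. The labels and the study's methods give RH30, while its results text names for this assay both RH30 and RH30-SR cells, in which NF-κB is inhibited, and the labels were followed here. All cells received Cas9 and a guide RNA. The 3 vector libraries received a scramble guide RNA that targets no gene, and the 3 MyoD-deleted libraries a guide RNA against MyoD, the transcription factor encoded by MYOD1. Chromatin was profiled by ATAC-seq, in which the Tn5 transposase inserts adapters into accessible DNA. The labels call the replicates biological, but whether the MyoD-deleted cells were 1 clone or a pool is not given in the sources used here, and a clonal difference and the deletion then cannot be told apart.

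Most promoters of genes used in every cell lie in CpG islands and are open in many tissues, whereas promoters that are poor in CpG often belong to genes used in only a few cell types, among them the genes of muscle contraction. MyoD is a basic helix-loop-helix factor that directs the muscle programme and binds E boxes, of which CAGCTG is a well-known form. AP-1, a dimer of JUN and FOS proteins, binds TGACTCA.

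The sequences below show the letters around the summits of 9 members, picked by hand as examples of the main results. They do not show how often a motif goes with a direction, and those counts are given further below. Each is written 5′ to 3′ on the strand of its gene, from GRCh38, up to 100 bp on each side of the summit and without bases annotated as UTR. Capitals mark CAGCTG, and they mark TGACTCA in either orientation. The first 4 hold CAGCTG, and all 4 were lower in MyoD-deleted libraries.
MYL10 (chr7:101628570-101628770, minus strand): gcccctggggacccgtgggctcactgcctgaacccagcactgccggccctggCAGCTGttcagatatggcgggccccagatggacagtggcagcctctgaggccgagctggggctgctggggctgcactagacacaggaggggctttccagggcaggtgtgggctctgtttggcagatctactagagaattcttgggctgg
HRC (chr19:49155921-49156121, minus strand): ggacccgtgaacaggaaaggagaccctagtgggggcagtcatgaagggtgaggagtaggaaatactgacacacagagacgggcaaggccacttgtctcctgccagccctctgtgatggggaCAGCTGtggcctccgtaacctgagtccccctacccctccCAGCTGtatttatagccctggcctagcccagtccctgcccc
MYH7 (chr14:23435803-23436003, minus strand): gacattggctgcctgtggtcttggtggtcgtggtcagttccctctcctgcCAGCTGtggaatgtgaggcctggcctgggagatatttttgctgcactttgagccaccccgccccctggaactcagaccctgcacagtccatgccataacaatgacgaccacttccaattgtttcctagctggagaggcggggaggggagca
TNNI1 (chr1:201430990-201431190, minus strand): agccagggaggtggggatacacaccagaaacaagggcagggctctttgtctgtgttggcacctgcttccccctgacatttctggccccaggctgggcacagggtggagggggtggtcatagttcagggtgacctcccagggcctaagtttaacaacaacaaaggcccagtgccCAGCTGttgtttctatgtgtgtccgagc
The next 3 hold TGACTCA and were higher in MyoD-deleted libraries.
STAT6 (chr12:57133195-57133395, minus strand): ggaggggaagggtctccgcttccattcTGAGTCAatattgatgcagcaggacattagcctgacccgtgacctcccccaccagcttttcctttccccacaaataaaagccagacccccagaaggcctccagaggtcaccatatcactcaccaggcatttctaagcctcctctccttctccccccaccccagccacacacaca
IL7R (chr5:35852182-35852382, plus strand): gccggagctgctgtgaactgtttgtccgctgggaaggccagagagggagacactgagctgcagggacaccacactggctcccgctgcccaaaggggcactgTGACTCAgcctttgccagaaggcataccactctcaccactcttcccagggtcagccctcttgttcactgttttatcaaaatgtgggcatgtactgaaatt
TBC1D28 (chr17:18643267-18643467, minus strand): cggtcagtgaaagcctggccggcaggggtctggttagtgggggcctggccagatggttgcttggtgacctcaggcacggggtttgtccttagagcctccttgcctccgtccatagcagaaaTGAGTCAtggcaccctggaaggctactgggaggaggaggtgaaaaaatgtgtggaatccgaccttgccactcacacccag
The last 2 hold neither of these and were lower in MyoD-deleted libraries, and PPARGC1A holds CAGGTG, another E box, in the opposite orientation.
PPARGC1A (chr4:23904217-23904417, minus strand): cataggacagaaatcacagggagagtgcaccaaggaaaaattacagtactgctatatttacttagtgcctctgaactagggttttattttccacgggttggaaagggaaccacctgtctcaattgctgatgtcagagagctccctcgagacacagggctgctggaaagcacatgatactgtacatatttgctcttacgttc
ACTC1 (chr15:34795608-34795808, minus strand): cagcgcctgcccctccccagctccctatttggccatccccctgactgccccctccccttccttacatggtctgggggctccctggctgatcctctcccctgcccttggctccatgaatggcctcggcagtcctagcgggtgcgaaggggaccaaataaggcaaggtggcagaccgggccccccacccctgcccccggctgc

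The deposited lists gave 63068 to 80530 peaks per library. A member's summit held a median of 71 to 103 fragments per library, with a lowest value of 9 in vector replicate 2 and a highest of 4488 in vector replicate 1. Each region was measured in 2 ways. Summit height is the log2 of the fragments at the summit over the library's smallest background, centred so that 0 is the median shared region of that library. Rank is the percentile of the region's fold enrichment among all shared regions of the same library. Since fold enrichment divides the summit by the local background, a region whose summit and surroundings change together moves in height and not in rank.

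Shared regions near the 5′ ends of the muscle genes MYOD1, MYOG, DES, CHRNA1 and MYMK were present in all 6 libraries. At MYOD1, the targeted gene, the 5′ region (chr11:17719004-17720574) was CpG-rich and so is no member. Its height was 2.75, 2.84 and 2.94 in vector and 2.14, 2.50 and 2.43 in MyoD-deleted libraries. The groups did not overlap (two-sided exact permutation test, p = 0.1, the smallest that 3 against 3 libraries allow). The accessibility of this region does not report whether the gene was edited.

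The members lay across a wide range of sequence and openness. Their median GC content was 56.8% and their median observed to expected CpG ratio 0.33, against 68.5% and 0.86 in CpG-rich promoter regions. Of the 1698, 1241 met the CpG criterion alone, 84 the GC criterion alone, and 373 both. Each was assigned to the gene with the nearest 5′ end, although 142 members had the 5′ ends of 2 or more genes within 2 kb. So assigned, they belonged to 1654 genes, of which 44 had 2 or more member regions. A further count found 123 members at a gene that also had a shared CpG-rich promoter region. The summit lay upstream of the 5′ end in 922, in an intron in 454, in an exon in 317 and beyond the end of the gene in 5. The median distance to the 5′ end was 394 bp, against 97 bp for CpG-rich promoter regions. Of the 778 members more than 500 bp from the gene's 5′ end, 120 lay within 500 bp of the 5′ end of another annotated transcript.

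Openness is given here as a description, with no test. The median member stood at the 39.4th percentile over the 6 libraries and at a height of 0.36, whereas the median CpG-rich promoter region stood at the 79.0th percentile and at 1.73. The median percentile of the members ranged only from 38.4 to 40.3 across the 6 libraries. The 5 members of highest mean rank were ENSG00000270249, ENSG00000173867, CFAP57, ZNF253 and SEC14L5, each above the 99th percentile in every library. ENSG00000270249 was lower by height in MyoD-deleted libraries, with a difference of −0.51 (SE 0.11, adjusted p = 0.0022, limma) and no overlap between groups, and the other 4 did not pass by height, with differences of 0.00 to 0.17. For these 5 members the adjusted p by rank from limma lay between 0.53 and 0.84.

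The thresholds cut through continuous values. A region upstream of RIMS3 had a CpG ratio of 0.599958 and was a member, while one in UNC13A at 0.600065 was not. SENP7 was inside with a GC content of 49.9% and FAM120AOS outside with 50.1%. PLEKHS1, with its summit 1996 bp from the 5′ end, was inside and ZNF689, at 2001 bp, outside. Besides the members, 217 CpG-poor promoter regions were called in 5 libraries, 137 in the 3 MyoD-deleted libraries alone and 39 in the 3 vector libraries alone. The lists also differed in length, with 73673, 80352 and 80530 peaks in MyoD-deleted and 74041, 63068 and 64602 in vector libraries. The counts of 137 and 39 were not adjusted for this and are no measure of gain or loss.

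CpG-poor promoters changed in both directions in the MyoD-deleted cells. By height, 180 members (10.6%) were higher and 213 (12.5%) were lower in MyoD-deleted libraries at an adjusted p under 0.05, with limma fitted over all shared regions, of which 11.4% were higher and 12.8% lower. By rank, 53 members (3.12%) were higher and 54 (3.18%) lower, against 4.12% and 4.67% of all shared regions. The members' shares were thus near or under those of all shared regions. In CpG-rich promoter regions, 2.55% were higher and 1.90% lower by height, and 0.617% moved in each direction by rank.

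**Figure D1:**
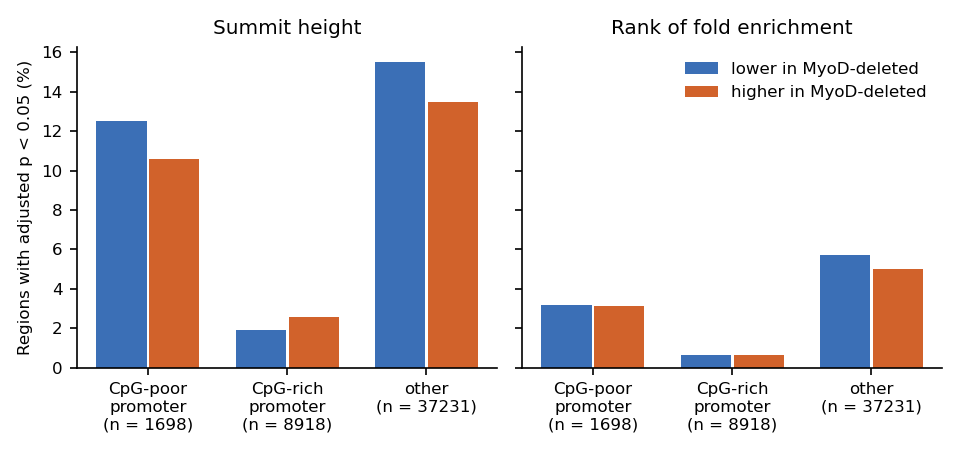
Percentage of regions with an adjusted p under 0.05 (limma) in each direction, by summit height (left) and rank of fold enrichment (right), for CpG-poor promoter regions, CpG-rich promoter regions and other shared regions. By height, CpG-poor promoters reached 12.5% lower and 10.6% higher, and CpG-rich promoters 1.90% and 2.55%.

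The split between higher and lower by height depended on the centring. Without it the median shared region shifted by 0.23 (log2) toward MyoD-deleted, and 445 members were higher and 106 lower, against 24.7% and 8.03% of all shared regions. Changes in height below are therefore relative to the median shared region. Height and rank called 88 members in the same direction and 0 in opposite directions, 305 members passed by height alone and 19 by rank alone.

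**Figure D2:**
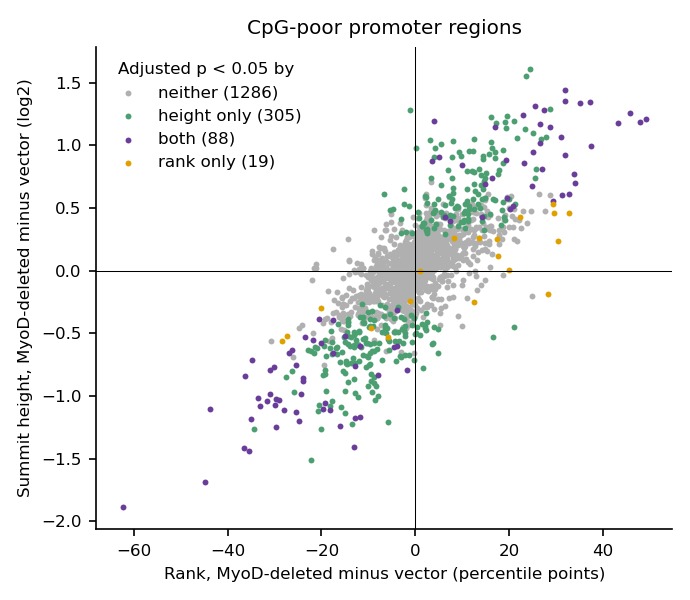
Change in rank (percentile points, x axis) against change in summit height (log2, y axis), MyoD-deleted minus vector, 1 point per CpG-poor promoter region, coloured by which measure passed an adjusted p of 0.05. The 88 regions called by both measures lie in the lower left and upper right.

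Member regions near the 5′ ends of muscle genes were mostly lower by height. The rule allows summits up to 2 kb away, and the muscle regions were not split by distance. Of the 57 members in 3 lists of muscle genes, 31 (54.4%) were lower and 1 (1.75%) was higher by height. Over all shared regions 12.8% were lower and 11.4% higher. The median height difference of the 57 was −0.46, against 0.04 over all members and all shared regions alike. The lists were chosen with earlier results of these data known, and their counts are a description. In the 31 that were lower, the difference ran from −1.21 to −0.45, and the groups did not overlap in 30. These 31 were picked as past the threshold, so the count of non-overlapping regions adds no support. The median height of these 31 was 1.15, 1.04 and 1.23 in vector and 0.48, 0.24 and 0.56 in MyoD-deleted libraries. Over all 57 it was 0.67, 0.72 and 0.80 in vector and 0.45, 0.22 and 0.56 in MyoD-deleted libraries. Without centring 17 (29.8%) of the 57 were lower and 3 (5.26%) higher, against 8.03% and 24.7% of all shared regions.

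Genes of contraction and the sarcomere had 29 member regions, of which 15 (51.7%) were lower and 0 higher by height, with a median of −0.48. The shares over all shared regions were 12.8% lower and 11.4% higher. TNNI1, the slow troponin I of the thin filament, had its summit 1224 bp upstream of the 5′ end. Its height was 1.87, 1.94 and 1.91 in vector libraries. In MyoD-deleted libraries it was 0.88, 0.24 and 0.98, a fall of 1.21 on the log2 scale (SE 0.15, adjusted p = 2.2e-05, limma). Every MyoD-deleted library lay below every vector library, with replicate 2 the lowest.
ACTC1, cardiac actin, which is also made in immature skeletal muscle, had heights of 1.93, 2.33 and 2.18 in vector libraries and 0.94, 1.07 and 1.06 in MyoD-deleted libraries. The change was −1.12 (SE 0.12, adjusted p = 3.3e-06, limma). Its window held no CAGCTG, and a CArG box, the site of serum response factor, lay within 100 bp of the summit.
MYH7, the slow myosin heavy chain, fell by 1.03 on the log2 scale (SE 0.15, adjusted p = 6.3e-05, limma), from 1.23, 1.03 and 0.86 to −0.03, 0.20 and −0.16. SMYD1, TNNT1 and TNNT2 changed by −0.92, −0.90 and −0.86, and ACTA1, skeletal actin, by −0.64. The groups did not overlap at any of these. Among members of the list that did not pass, TNNI3 had a difference of 0.03 and LMOD1 one of 0.28.

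Genes of the neuromuscular junction and of excitation-contraction coupling had 17 member regions. Of these 9 (52.9%) were lower and 1 (5.88%) higher by height, against 12.8% and 11.4% of all shared regions, with a median of −0.45. RYR1, the calcium release channel of the sarcoplasmic reticulum, had its summit 1109 bp downstream of the 5′ end. Its heights were 1.61, 1.87 and 1.87 in vector libraries and 0.53, 0.64 and 0.95 in MyoD-deleted libraries (difference −1.08, SE 0.13, adjusted p = 1.3e-05, limma). HRC, which binds calcium in the same store, had heights of 0.60, 0.72 and 0.86 in vector libraries and −0.03, −0.87 and −0.25 in MyoD-deleted libraries. Both genes had non-overlapping groups. CHRND and CHRNG, subunits of the acetylcholine receptor, and MUSK and DOK7, which cluster it, changed by −0.47, −0.45, −0.60 and −0.65, and all but DOK7 lost their call without centring. CHRNA1, another subunit, had a difference of 0.32 that did not pass (adjusted p = 0.087, limma). The 1 region that was higher lay at JPH2, which ties the sarcoplasmic reticulum to the surface membrane, with a difference of 0.47 (SE 0.14, adjusted p = 0.021, limma), a call lost without vector replicate 2 or MyoD-deleted replicate 1 or 3.

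Myogenic regulators and fusion genes had 11 member regions, of which 7 (63.6%) were lower and 0 higher by height, with a median of −0.46. All shared regions had 12.8% lower and 11.4% higher. MYOG, the regulator that acts after MyoD in differentiation, had 2 of the 11 member regions. At the summit 216 bp upstream, the height was 1.52, 1.94 and 1.80 in vector libraries and 0.94, 0.71 and 1.29 in MyoD-deleted libraries (difference −0.78, SE 0.14, adjusted p = 0.00071, limma). The intronic summit, 1278 bp downstream, changed by −0.46, a call lost without centring (−0.27), with centring within GC bins (−0.42) and without vector replicate 2 or 3 or MyoD-deleted replicate 1 or 2. MYMK and MYMX, the membrane proteins that fuse myoblasts, changed by −0.45 and −0.49. Neither call held without centring (−0.26 and −0.29), MYMK lost its call also with centring within GC bins (−0.43) and without any 1 library but vector replicate 1, and MYMX without vector replicate 2 or 3 or MyoD-deleted replicate 2. MSTN, an inhibitor of muscle growth, was lower at 1 of its 2 regions, by −0.74, a call lost without centring and without either replicate 2.

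**Figure D3:**
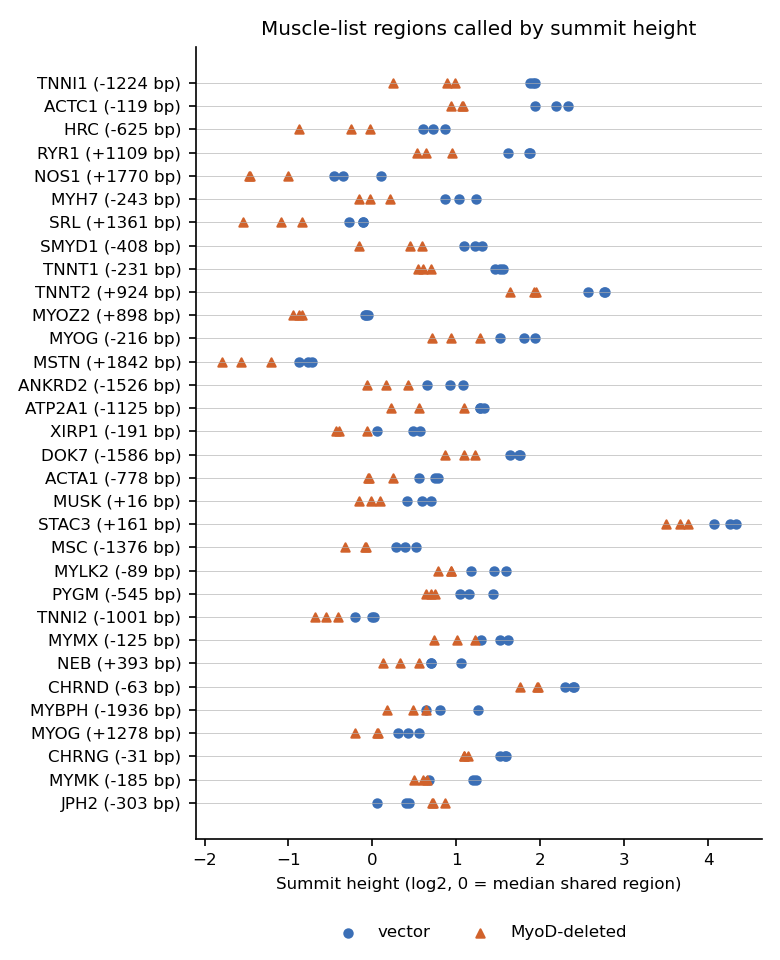
Summit height (log2, 0 is the median shared region) in each library for the 32 muscle-list regions with an adjusted p under 0.05 by height, sorted by the size of the change, with the distance of the summit from the gene's 5′ end in parentheses. Circles are vector libraries and triangles MyoD-deleted libraries, and in all rows but JPH2 the triangles lie to the left, with overlap in MYBPH alone.

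Few of these muscle regions passed by rank. Of the 57 regions 5 (8.77%) were lower and 1 (1.75%) higher by rank, against 4.67% and 4.12% of all shared regions. The 5 were ANKRD2, ACTC1, MYLK2, HRC and SRL. Mean local background was also lower without MyoD at 29 of the 31 regions with lower height, and at 43 of all 57. It was lower at 607 of the 1698 members and at 18083 of the 47847 shared regions. Its part in the result was not tested. At TNNI1 the mean log2 background over the library's smallest was 4.03 with vector and 3.03 without MyoD. Its rank percentile was 15.6, 22.2 and 15.2 in vector libraries and 16.8, 6.81 and 12.3 in MyoD-deleted libraries (adjusted p = 0.45, limma). At MYBPH, DOK7, MYMK and both MYOG regions the mean rank difference was above 0 although the height was lower. MRLN, a micropeptide that restrains the calcium pump, was the region higher by rank. Its height was −1.46 ± 0.28 (SD, n = 3) with vector against −1.45 ± 0.18 (SD, n = 3) without MyoD, and its local background differed by −0.87.

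Of the members, 30.7% held CAGCTG within 100 bp of the summit on either strand, against 11.5% of CpG-rich promoter regions and 31.5% of other shared regions. TGACTCA was found in 14.8%, 1.49% and 21.6%. GGGCGG, the GC box of SP1, was found in 27.1%, 69.9% and 13.6%, and CCAAT, the site of NF-Y, in 26.0%, 26.8% and 22.7%. The CpG-poor promoters thus held these E box and AP-1 letters at shares nearer to those of other shared regions than to those of CpG-rich promoters. The rule itself bars CpG-rich windows and so affects motifs that contain CG. Member summits also lay farther from the 5′ end than those of CpG-rich promoters, and the motif shares were not split by distance. Of the 803 members within 250 bp of a transcript's 5′ end, 2.24% had TATAAA on the sense strand from 40 to 20 bp before it, against 0.928% of 7977 CpG-rich regions.

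Calls were counted by motif. Of the 522 members with CAGCTG, 122 (23.4%) were lower and 25 (4.79%) higher by height, and of the 1176 without it 91 (7.74%) were lower and 155 (13.2%) higher. By rank, 30 (5.75%) of those with it were lower and 5 (0.958%) higher, against 24 (2.04%) and 48 (4.08%) of those without. Of the 282 members with CAGGTG, another E box, 61 (21.6%) were lower and 14 (4.96%) higher by height, beside 10.7% lower and 11.7% higher of the 1416 without it. Without centring, 62 of the 522 were lower and 83 higher, so that the balance of directions turned, while members without CAGCTG had 44 lower and 362 higher. Regions are not replicates, and these shares carry no test.

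Of the 122, 18 were in the muscle lists. Of the 495 members outside the lists with CAGCTG, 104 (21.0%) were lower by height, and of the 1146 without it 78 (6.81%). Within the lists, 18 (66.7%) of 27 with CAGCTG and 13 (43.3%) of 30 without it were lower. In members lower by height the centre of the nearest CAGCTG lay a median of 38.5 bp from the summit, against 43.5 bp in members not called.

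Calls were also counted for the AP-1 site. Of the 251 members with TGACTCA, 48 (19.1%) were higher and 27 (10.8%) lower by height, against 9.12% and 12.9% of the 1447 without it. Among the 169 with TGACTCA and no CAGCTG, 39 (23.1%) were higher and 9 (5.33%) lower, and among the 82 with both motifs 9 (11.0%) were higher and 18 (22.0%) lower. In CpG-rich promoter regions with CAGCTG, 3.50% were lower and 1.95% higher, against 1.69% and 2.62% without it. Of the 133 with TGACTCA, 5 (3.76%) were higher and 4 (3.01%) lower, against 2.53% and 1.88% without it. Other shared regions with CAGCTG had 28.6% lower and 6.99% higher, against 9.46% and 16.5% without it. Those with TGACTCA had 21.7% higher and 10.7% lower, against 11.3% and 16.8% without it. Both motif patterns were thus also present in other shared regions. In CpG-rich promoters only that of CAGCTG was seen, at smaller shares.

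**Figure D4:**
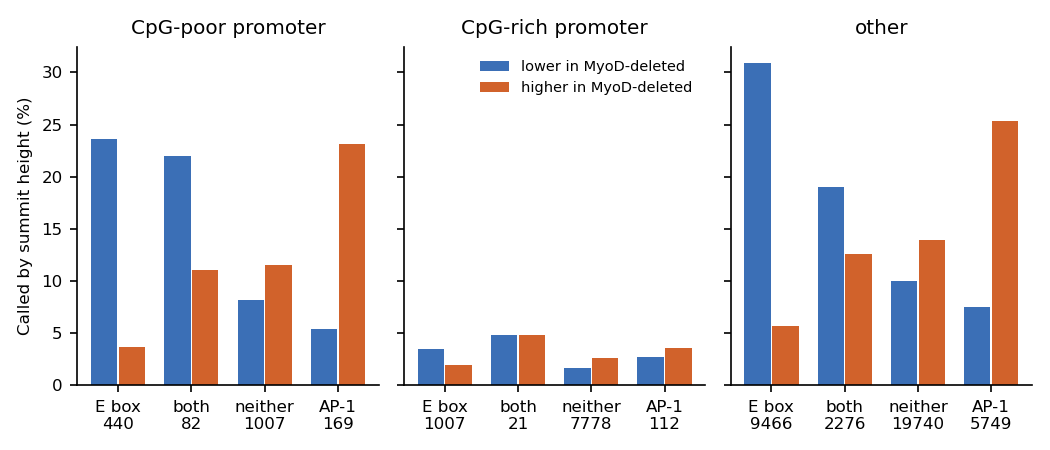
Percentage of regions called lower or higher by summit height in MyoD-deleted libraries (adjusted p under 0.05, limma), by whether CAGCTG (E box) or TGACTCA (AP-1) lies within 100 bp of the summit, in CpG-poor promoters, CpG-rich promoters and other shared regions. The number under each pair of bars is the number of regions, and among CpG-poor promoters 23.6% of those with the E box alone were lower and 23.1% of those with AP-1 alone were higher.

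Calls were counted by distance from the 5′ end, beside 11.4% higher and 12.8% lower by height among all shared regions. Of the 445 members with a summit within 100 bp, 48 (10.8%) were higher and 25 (5.62%) lower by height. Of the 778 members more than 500 bp away, 80 (10.3%) were higher and 129 (16.6%) lower. The higher shares were near that of all shared regions. Of the 84 members that met the GC criterion alone, 1 (1.19%) was higher and 6 (7.14%) were lower.

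The largest changes in rank were ordered on the inverse-normal scale used in the fit, on which a shift near either end of the percentiles counts for more than the same shift in the middle. The largest falls among members with non-overlapping groups included genes outside the muscle lists. PPARGC1A, the coactivator of mitochondrial biogenesis, stood at the 83.4, 66.6 and 62.2 percentile in vector libraries and at 4.37, 10.2 and 10.6 in MyoD-deleted libraries (adjusted p = 0.0029, limma). Its height went from −0.22 ± 0.09 (SD, n = 3) with vector to −2.11 ± 0.15 (SD, n = 3) without MyoD, the largest fall of any member. MCCC1, an enzyme of leucine breakdown, stood at 41.6, 71.9 and 55.6 against 8.01, 12.3 and 17.4. HK3, a hexokinase, stood at 15.3, 16.5 and 10.4 against 0.53, 0.538 and 2.71.
SLC18A1, a vesicular monoamine transporter, USP7, a deubiquitinase, UBAP1L and ENSG00000254706 completed this group together with HRC, ANKRD2 and MYL10. In UBAP1L the MyoD-deleted libraries spread widely, at 17.9, 9.34 and 52.2. The rank calls at SLC18A1, HRC, UBAP1L, ANKRD2, ENSG00000254706 and HK3 were lost without at least 1 of the libraries.

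MYL10, a myosin light chain, had 2 member regions. The intronic region 626 bp downstream fell by 1.41 in log2 height (SE 0.15, adjusted p = 3.7e-06, limma), from 0.84, 1.10 and 1.18 to −0.47, −0.40 and −0.23. The region 1459 bp upstream was among the largest rises in rank, from 0.164, 0.342 and 0.152 to 13.1, 9.41 and 3.03. Its height did not pass, with a difference of 0.27 (SE 0.19, adjusted p = 0.35, limma), and its local background differed by −0.60.

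The 10 largest rises, ordered on the same scale, were at STAT6, TBC1D28, MUC21, MYL10, INSYN2B, INHBE, IL7R, MILR1, ASCL5 and SLC34A1. IL7R, the receptor of interleukin-7, stood at the 27.4, 7.70 and 16.6 percentile in vector libraries and at 58.2, 67.5 and 63.3 in MyoD-deleted libraries (adjusted p = 0.0087, limma). Its height rose by 1.26 on the log2 scale (SE 0.21, adjusted p = 0.0003, limma). TBC1D28 rose from 2.28, 1.74 and 9.52 to 40.4, 37.0 and 31.6, MUC21, a mucin, from 12.3, 7.70 and 5.64 to 53.1, 46.1 and 56.0, and INSYN2B from 12.3, 18.3 and 32.8 to 63.9, 70.9 and 75.8. MILR1 is a receptor of mast cells and SLC34A1 a phosphate transporter. The rank calls at ASCL5, SLC34A1 and STAT6 were lost without at least 1 of the libraries.
STAT6, the transcription factor of interleukin-4 signalling, rose in height from 2.46, 1.75 and 1.84 to 3.10, 3.55 and 2.99 (adjusted p = 3.6e-05, limma), yet its rank was at most 7.72 in any library. INHBE, which encodes an inhibin subunit, rose in rank with heights of 2.37 ± 0.20 (SD, n = 3) and 2.37 ± 0.13 (SD, n = 3) in vector and MyoD-deleted libraries. Both lie on chromosome 12, and their log2 local background ran from 5.37 to 6.29 over the libraries, against a median of 1.90 to 2.04 over all members. The part of DNA copy number in this was not tested. Of the 13 members that were higher by rank and did not pass by height, 10 had a lower mean background in MyoD-deleted libraries. Over all members, 607 of 1698 had one. Rank divides by this background and height does not, so members picked in this way would mostly have a lower background.

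**Figure D5:**
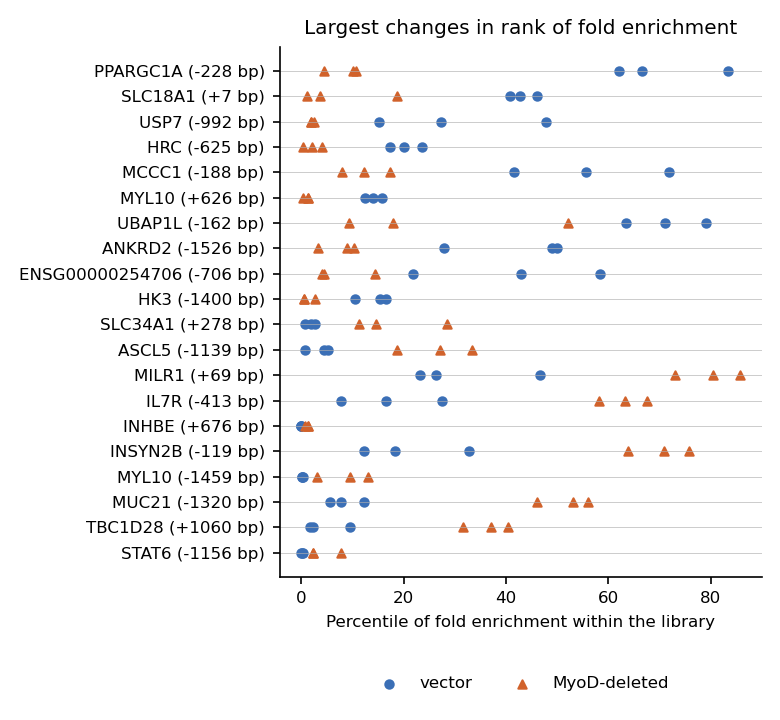
Percentile of fold enrichment in each library for the 10 CpG-poor promoter regions with the largest fall and the 10 with the largest rise in rank, by inverse-normal score, among those with an adjusted p under 0.05 and non-overlapping groups. Circles are vector libraries and triangles MyoD-deleted libraries; PPARGC1A moves from 62.2 to 83.4 down to 4.37 to 10.6.

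Other gene families were counted in the same way, beside 11.4% higher and 12.8% lower by height among all shared regions. Zinc finger genes had 67 member regions, of which 8 (11.9%) were higher and 1 (1.49%) lower by height, and 3 (4.48%) were higher and 1 lower by rank, so that the higher shares were near those of all shared regions. ZNF556 rose in rank from 76.5, 80.0 and 78.0 to 92.2, 97.4 and 96.9, and ZNF345 fell from 96.2, 92.9 and 91.9 to 79.6, 67.1 and 72.8. Cytokines had 14 regions, with 4 (28.6%) higher and 3 (21.4%) lower by height, and cytokine receptors 13, with 3 (23.1%) higher and 1 (7.69%) lower, IL7R being counted in both lists.
TNFSF15, a ligand of the TNF family, rose in height from −2.02, −2.00 and −1.96 to −0.65, −0.65 and −0.73, and CSF1R, the receptor of a macrophage growth factor, from 0.33, −0.08 and 0.13 to 0.97, 1.10 and 0.99. Keratins and keratin-associated genes had 16 regions, with 3 (18.8%) higher and 5 (31.2%) lower by height. Solute carriers had 29 regions, with 4 (13.8%) higher and 6 (20.7%) lower, and ion channels 14, with 1 (7.14%) higher and 3 (21.4%) lower. Collagens, laminins and integrins had 16, with 2 (12.5%) higher and 1 (6.25%) lower, serpins, S100 proteins and annexins 14, with 1 (7.14%) in each direction, shares near or under those of all shared regions, and ribosomal proteins 5, with RPL36 lower.

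Genes of regulated cell death had 8 member regions, of which 1 (12.5%) was higher and 1 lower by height, shares near those of all shared regions. NLRP3, the sensor of an inflammasome, rose in height from −1.09, −1.64 and −1.65 to −0.30, 0.40 and −0.44 (difference 1.34, SE 0.24, adjusted p = 0.00044, limma). BCL2L10, a BCL2 family member, changed by −0.68 (SE 0.17, adjusted p = 0.0059, limma). BAK1 had a difference of 0.01 and CASP4 one of −0.21, neither of which passed. Growth factor signalling genes had 7 regions, histones 9, olfactory receptors 3 and protocadherins 8, and by limma at an adjusted p under 0.05 none of these 4 lists had a member called by height or rank.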

How the data were processed

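The 6 ATAC-seq libraries were 3 vector and 3 MyoD-deleted. The authors aligned reads to hg38 (Rsubread), retained properly paired reads and ran MACS2 on every library by itself. Per the labels, bcl2fastq 2.20 and FastQC were also used. Fold enrichment as deposited by the authors is the ratio of a summit to its local background within a library, and the deposited −log10 p-values and −log10 q-values belong to the same summit. Neither is normalized between libraries, and read depth was not used here. The fragments at each summit and the local background were recovered from the fold and p of each peak.

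Peaks of chromosomes 1 to 22 and X were merged where they overlapped and annotated with GENCODE 44. Ranks, as inverse-normal scores, and heights were fitted with limma 3.58.1 in R 4.3.3 (lmFit, eBayes with a trend), with group as the only term, over 47847 regions with Benjamini-Hochberg adjustment. The authors' published comparison used read counts and DESeq2, which peak lists cannot supply. Scripts were tested on simulated data, where large changes were mostly found and small ones were often missed, so a region that did not pass is not shown to be unchanged. Genes were named by these rules: the 10 largest rises and 10 largest falls by rank past 0.05 with non-overlapping groups, the 5 highest mean ranks, muscle-list members past either threshold, up to 4 of each other list, and the regions on either side of each threshold. Muscle-list members that did not pass and are named (TNNI3, LMOD1, CHRNA1) were chosen after their values were seen. The members and gene lists were chosen with earlier results of these data known. Alternatives changed the ranking, centring, peak threshold, promoter definition, libraries and replicate block.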

Additional observations from a re-analysis of the deposited data

How the results depend on the processing

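The counts of members that passed moved with the measure, the centring, the promoter definition and single libraries. By rank, the 53 higher and 54 lower became 157 and 175 with ranks of −log10 p, and 32 and 29 with the replicate block. They became 124 and 129 of 3258 regions with the 5′ ends of all transcripts, 29 and 18 of 920 within 500 bp, and 15 and 12 of the 373 that met both sequence criteria. By height, the 180 higher and 213 lower became 445 and 106 without centring, 375 and 444 with transcript 5′ ends, 100 and 84 within 500 bp, and 56 and 45 with both criteria. The last 3 settings test more or fewer regions by construction. For the others the cause was not tested. Leaving out 1 library gave 15 to 51 higher and 10 to 44 lower by rank, with under 1.5 times the difference only without vector replicate 1. By height it gave 107 to 195 higher and 145 to 246 lower, and the count of higher regions moved by over 1.5 times without vector replicate 2 (107) and without MyoD-deleted replicate 2 (116).

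The groups in the text were recounted under alternatives chosen after seeing the data. The 31 muscle regions lower by height became 17 without centring and 5 by rank of fold enrichment, and 25 to 29 with 1 library left out. The 122 members with CAGCTG lower by height became 62 and 30, and 85 to 136. The 48 members with TGACTCA higher by height became 96 and 14, and 31 to 61, the lowest without vector replicate 2. The difference turned positive by inverse-normal rank at MYBPH (0.23), DOK7 (0.13), MYOG (0.59 in the intron and 0.076 upstream) and MYMK (0.19), none past the threshold. Of 180 values for the 20 members named by rank, 156 kept their call, 24 lost it and 0 changed sign. Of 320 values for the 32 muscle regions, 243 kept it, 72 lost it and 5 changed sign, the 5 just given.

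Replicates of the same number did not deviate together (correlations of −0.04, −0.10 and 0.04 by rank and −0.04, −0.20 and 0.09 by height), so the numbers do not pair the libraries, and the replicate block left 157 higher and 195 lower by height, and 30 muscle regions. Weak summits, down to 9 fragments, limit what could be detected at low members.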
